A study of Mus musculus with 14 samples.

Results

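Open chromatin was read at 10 genes of the Krüppel-like factor (KLF) family, Klf2, Klf3, Klf4, Klf6, Klf7, Klf9, Klf10, Klf11, Klf12 and Klf13. These genes were chosen with earlier results of these data known, so counts of calls among them are a description. Klf1, Klf5 and Klf16, of the same family, are outside this list and are given below. A peak was given to a gene where that gene was the nearest protein-coding gene within 50 kb, which gave 66 of the 57289 peaks of 700 bp in the series. All 10 genes had a peak within 1 kb of an annotated end of the gene, out of 13263 protein-coding genes that had one. The most accessible end is called the gene end here. Accessibility is not transcription, and no RNA was measured in these libraries.

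KLF proteins are zinc-finger transcription factors that bind CACCC boxes and GC-rich promoters and share a related DNA-binding domain, while the rest of the protein decides whether a member activates or represses. KLF2 and KLF4 hold T cells and endothelium in a resting state, and in endothelium both genes are switched on by shear stress through the kinase ERK5 and MEF2 factors. KLF3 and KLF12 recruit the corepressor CtBP, and KLF9, KLF10, KLF11 and KLF13 recruit the corepressor Sin3A.

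The assay was bulk ATAC-seq, in which the transposase Tn5 cuts and tags open chromatin, on long-term haematopoietic stem cells (LT-HSCs) sorted from bone marrow of C57BL/6 mice as Lin- Sca1+ cKit+ CD34- Flt3-. The 14 libraries formed 3 groups, which were aged Ri (mice over 80 weeks, cells given the RhoA inhibitor Rhosin at 100 µM, n = 5), aged (over 80 weeks, n = 5) and young (10 to 16 weeks, n = 4). Cells of every group, the untreated ones included, were held for 16 h outside the animal at 37 °C and 3% oxygen before the assay. The series asks what ageing and RhoA inhibition do to the chromatin of these cells, and each of the 3 sequencing batches holds all groups.

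Total counts ran between 765533 in young 3 and 3176246 in aged Ri 3, with a median of 7 to 30 counts per peak. The share of counts in peaks at gene ends was 42.5% ± 4.5 in aged Ri (SD, n = 5), 42.6% ± 4.4 in aged (SD, n = 5) and 48.7% ± 1.9 in young libraries (SD, n = 4), with the lowest at 35.9% in aged Ri 1. Of 10 LT-HSC markers, 9 had an open gene end (Slamf1 had none), and their summed level was 480 to 602 CPM in aged Ri, 520 to 634 CPM in aged and 474 to 652 CPM in young libraries. Single markers differed within this sum: Hoxb5 was higher in aged Ri (1.89-fold, adjusted p = 0.0163) and in aged cells (2.10-fold, 0.0109) than in young cells, and Procr in aged Ri cells than in young cells (2.09-fold, 0.00582; edgeR). No peak lay at an end of Pax5, Ms4a1, Cd3e, Cd8a, Ncr1, Ly6g or S100a8, markers of B, T, NK and myeloid cells, but other markers of the same lists had open ends. Cd3d had 131 ± 24.6 CPM in aged Ri, 135 ± 47.4 CPM in aged and 126 ± 40.6 CPM in young cells, and Cd79a had 45.2 ± 11.99 CPM, 48.4 ± 14.8 CPM and 61.9 ± 15.9 CPM in the same groups. The group means of Ebf1 were 42.2 to 64.8 CPM, those of Cd5, Elane, Mpo, Csf1r and Itgam were 7.23 to 26.5 CPM, and none of these 8 was called in any comparison. The 4 of 5 megakaryocyte markers with an open end summed to 285 to 372 CPM in aged Ri, 282 to 541 CPM in aged and 130 to 291 CPM in young libraries, and Gp1ba, which encodes a platelet glycoprotein, had an adjusted p of 0.0239 in aged Ri and 0.0125 in aged against young cells (edgeR). CPM are counts put on a common depth by TMM, over gene-end counts for gene ends and over all peaks for single peaks.

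The promoters of the genes whose ends passed a test below, Klf2 and Klf9, are shown because each lies whole under the peak that was tested. They are the RefSeq windows of GRCm38.p6 (mm10), 300 bases around the start, 5′ to 3′ on the plus strand, at chr8:72318812-72319111 for Klf2 and chr19:23140976-23141275 for Klf9. Capitals mark a match to the MEF2 motif in Klf2 and a CACCC box in Klf9.
Klf2: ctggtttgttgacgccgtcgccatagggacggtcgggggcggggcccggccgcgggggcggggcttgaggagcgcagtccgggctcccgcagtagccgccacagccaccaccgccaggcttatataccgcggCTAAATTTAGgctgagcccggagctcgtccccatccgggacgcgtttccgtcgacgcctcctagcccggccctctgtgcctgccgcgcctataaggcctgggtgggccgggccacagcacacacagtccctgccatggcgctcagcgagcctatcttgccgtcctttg
Klf9: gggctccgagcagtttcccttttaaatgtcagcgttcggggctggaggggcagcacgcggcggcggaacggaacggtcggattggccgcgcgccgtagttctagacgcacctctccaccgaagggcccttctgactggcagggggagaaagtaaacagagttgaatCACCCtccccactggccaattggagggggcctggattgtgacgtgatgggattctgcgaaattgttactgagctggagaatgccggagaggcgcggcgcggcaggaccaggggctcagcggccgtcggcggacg

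Of the 10 genes, 9 had a promoter window in the RefSeq table, and they were searched on both strands for 5 short motifs beside all 32851 windows of the table. The MEF2 motif, CTA and TAG parted by any 4 letters, was in 1 of 9 KLF windows, that of Klf2, where it starts 118 bases before the gene start, and in 3.69% of all windows. The KLF box, CACCC, was in 6 of 9 KLF windows (Klf2, Klf3, Klf7, Klf9, Klf12 and Klf13) and in 57.5% of all. In Klf9 the AP-1 motif, TGANTCA, runs into the CACCC box and shares its first letters, and it was in no other KLF window, against 7.81% of all windows. An NRF2 motif, TGACNNNGC, was in the Klf3 and Klf6 windows and in 12.4% of all, and the CREB motif, TGACGTCA, was in none of the 9 and in 1.79% of all.

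The 10 loci differed in size and in where their counts lay. Klf13 had 14 peaks, Klf3 and Klf12 had 10 each, and Klf11 had 1, with a median of 5 peaks per KLF gene against 2 over all genes with any peak. By position, 14 KLF peaks (21.2%) were at gene ends, 29 (43.9%) inside gene spans and 23 (34.8%) outside, while all peaks split into 24.1%, 40.3% and 35.6%. The gene end held 30.1% of the counts of the Klf13 locus, 42.6% at Klf2, 78.3% at Klf7 and all counts at Klf11. The tested end was the start for each of the 9 genes whose strand is in the RefSeq table, with exceptions in detail for Klf7 and Klf12: the peak at chr1:64121622-64122321 lies just inside the outer end of Klf7 and covers only 18 bases of its promoter window, and the pair of peaks between 100284522 and 100286379 on chromosome 14 lies at the outer end of the Klf12 span, far from the start that the promoter table gives. The Klf3 peak at chr5:64802879-64803578 also touches an end of Gm38457, so its counts cannot be split between them.

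Per 700 bp, 9 of the 10 KLF ends were at or above the 78.5th percentile of all gene ends in each group, and Klf12 was the exception. Klf10 led in every group, at 240 ± 44.1 CPM in aged Ri, 232 ± 22.9 CPM in aged and 272 ± 53.8 CPM in young cells, against a median of 51.4, 51.7 and 51.9 CPM over all 13239 gene ends in the same groups. Klf12 was last, at 61.3 ± 12.04, 46.9 ± 7.56 and 46.4 ± 8.59 CPM per peak in aged Ri, aged and young cells, at the 57.6th, 45.9th and 45.8th percentile. The order between these was mostly within the spread: in aged Ri cells only the gaps from Klf6 to Klf11 and from Klf4 to Klf12 exceeded the SD of both neighbours, in aged cells those from Klf11 to Klf4 and from Klf2 to Klf12, and in young cells the gap from Klf2 to Klf12 alone. Klf2 stood 4th in aged Ri cells, at the 94.9th percentile of gene ends, and 9th of the 10 in both aged cells (78.5th) and young cells (82.0th).

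**Figure D1:**
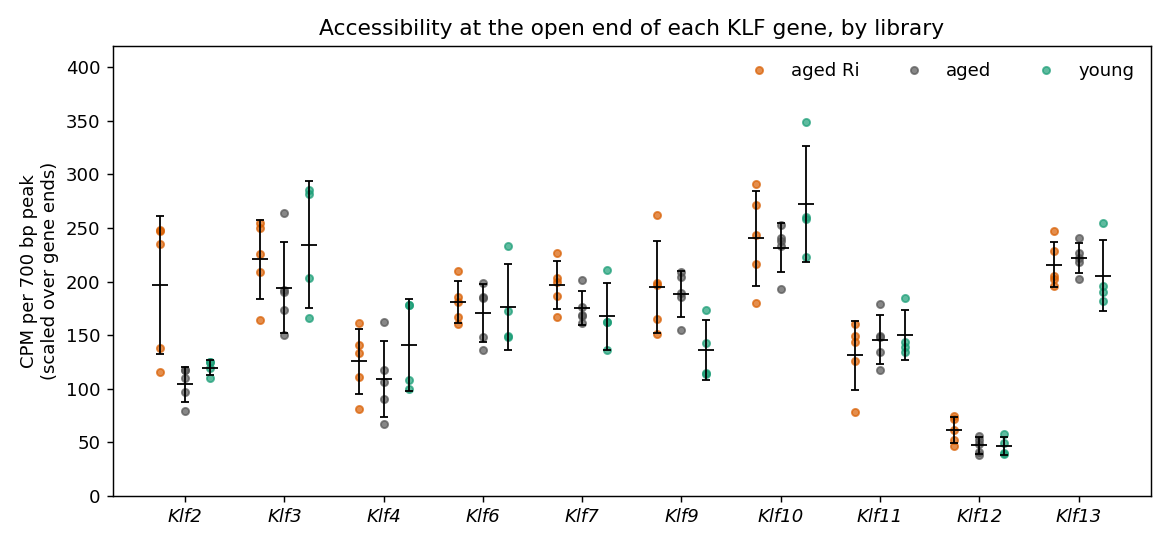
CPM per 700 bp peak at the open end of each KLF gene (vertical axis, scaled over gene ends) for aged Ri, aged and young libraries; points are libraries and bars the mean and SD (n = 5, 5 and 4). At Klf2, 3 aged Ri libraries lie at 235 to 248 CPM, above every aged and young library, while the groups overlap at each gene.

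With Rhosin, the end of Klf2 rose, and it was the one KLF end of the 10 that passed the test. The start of Klf2, at chr8:72318688-72319387 over the promoter shown above, had 116, 247, 248, 235 and 138 CPM in aged Ri libraries 1 to 5, against 110, 96.5, 79.0, 117 and 118 CPM in aged libraries 1 to 5. Aged Ri 2, 3 and 4 were high, and aged Ri 1 lay within the range of the aged libraries. Accessibility averaged 197 ± 64.6 CPM in aged Ri and 104 ± 16.5 CPM in aged cells (SD, n = 5 each), a model log2 fold change of 0.91 ± 0.17 (SE; 1.88-fold; edgeR quasi-likelihood test, Benjamini-Hochberg adjusted p = 0.0314 over 13239 gene ends). In bulk libraries, more cells with the region open and a more open region per cell cannot be told apart.

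Among all gene ends 0.0755% passed this test, and 0.0604% were higher, so the 1 of 10 KLF ends stands beside 10 called ends among all 13239. The aged Ri library was above the aged library of the same number in 5 of 5 pairs, by 1.05 to 3.14 times. This count depends on the scaling: scaled over all peaks, the same peak was higher in 4 of 5 pairs, with ratios of 0.866 to 3.24. Scaled over gene ends, the log2 difference within batches 1, 2 and 3 was 0.71, 1.32 and 0.23, the last from a single pair. With the replicate number as a block the adjusted p was 3.57e-06, where 1.15% of gene ends were called. The pairing by number was assumed from shared batches and correlations, which are given in the processing section. The call was lost when aged Ri 2, 3 or 4 or aged 1, 2, 3 or 4 was left out (adjusted p 0.0563 to 0.134, log2 0.76 to 0.94), without the batch term (0.0556), and with scaling over all peaks (0.167). Without aged Ri 1, the library with the lowest share of counts at gene ends, log2 was 1.05 and the adjusted p 0.000387.

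The other 9 ends gave no call in aged Ri against aged cells, with adjusted p values of 0.520 or more. Klf12, the CtBP-recruiting repressor, was nearest, with a log2 fold change of 0.38 ± 0.15 (SE) and an adjusted p of 0.520 (edgeR). Its summed pair of peaks had 149, 104, 143, 93.4 and 122 CPM in aged Ri libraries and 112, 75.5, 96.7, 81.4 and 103 CPM in aged libraries, above its aged partner in 5 of 5 pairs, with overlap between the groups. Klf4, the paralogue that shares much of its known control with Klf2, had 81.1, 111, 133, 141 and 161 CPM in aged Ri and 106, 67.1, 90.3, 117 and 162 CPM in aged libraries, a log2 fold change of 0.23 ± 0.14 (SE), and was above its partner in 3 of 5 pairs. Klf3 and Klf7 had 0.19 ± 0.14 and 0.16 ± 0.12 (log2, SE), Klf6, Klf9 and Klf10 had 0.04 to 0.06, Klf13 had -0.05 and Klf11 -0.17. The median over the 10 ends was 0.11, beside -0.0033 over all gene ends.

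**Figure D2:**
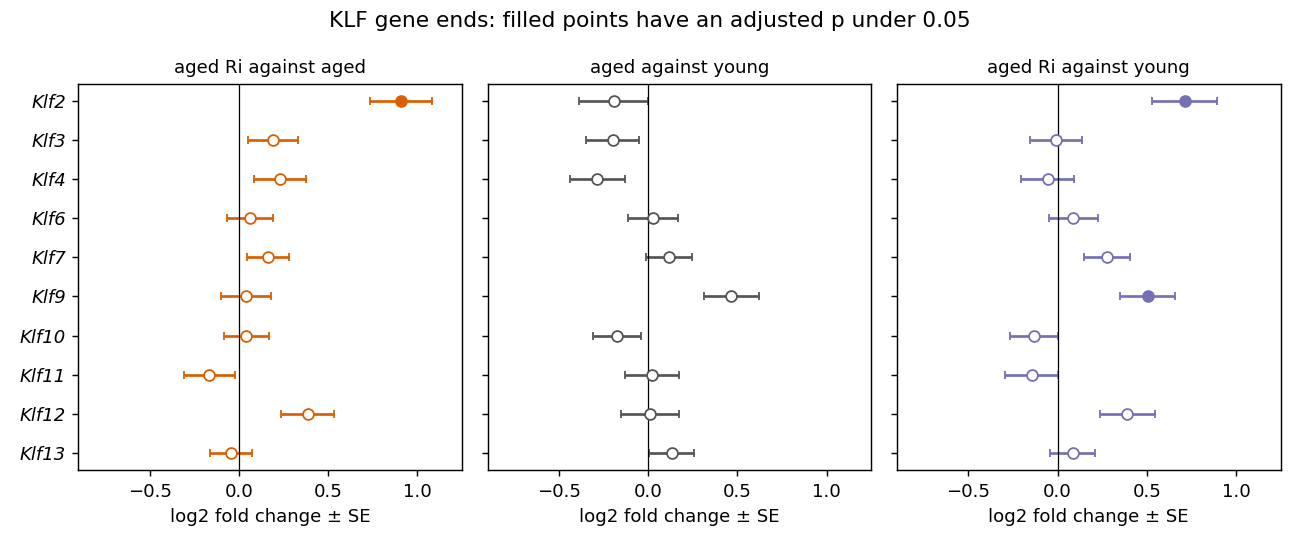
Log2 fold change with its SE (horizontal axes) at the end of each KLF gene in aged Ri against aged, aged against young and aged Ri against young cells; filled points have an adjusted p under 0.05. Klf2 is filled in both comparisons of aged Ri cells, at 0.91 and 0.71, and Klf9 in aged Ri against young cells, at 0.51.

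At single peaks, 65 of the 66 KLF peaks had enough counts to be tested, and 5 differed between aged Ri and aged cells, all 5 higher with Rhosin. Over all 56235 peaks tested, 0.446% were called and 0.375% were higher. All 5 lay outside gene spans, where 23 KLF peaks were tested and 0.608% of all such peaks were called. None of the 14 KLF peaks at ends or 28 inside spans was called. Over all peaks, 0.0947% of those at ends and 0.517% of those inside spans were called, so the absence of KLF calls there is near these shares. Each of the 5 called peaks had under 30 CPM in every library, except the far Klf2 peak, so counts per library were small. Over the 65 peaks the median log2 fold change was 0.14, against -0.02 over all peaks, and 15 had an unadjusted p under 0.05, against 10.2% of all.

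The smallest adjusted p values belonged to a pair of peaks upstream of Klf2. The peak 15.6 kb upstream, at chr8:72303147-72303846, had 8.85, 17.0, 23.2, 17.6 and 9.70 CPM in aged Ri libraries 1 to 5, against 4.01, 4.69, 6.39, 5.48 and 4.45 CPM in aged libraries. Every aged Ri library was above every aged one. The log2 fold change was 1.55 ± 0.31 (SE; 2.93-fold; edgeR adjusted p = 0.0136), and the ratio within pairs was 2.18 to 3.64. The call was lost without aged Ri 2 or 3 or aged 2, 3 or 4 (adjusted p 0.0502 to 0.130).

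The peak 23.4 kb upstream, at chr8:72295356-72296055, was the deeper one and had 47.9, 113, 125, 98.2 and 59.8 CPM in aged Ri libraries, against 41.7, 39.8, 57.2, 37.6 and 43.6 CPM in aged libraries. Aged Ri 2, 3 and 4 were again the high libraries, and aged Ri 1 fell below the highest aged library. The log2 fold change was 0.97 ± 0.22 (SE; 1.97-fold; edgeR adjusted p = 0.0324), with 5 of 5 pairs above 1. The call was lost without aged Ri 2 or 3 or aged 1, 2, 3 or 4 (0.0699 to 0.229) and without the batch term (0.0969).

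The other 3 Klf2 peaks had positive log2 fold changes and no call. Scaled over all peaks, the start peak had 41.7, 131, 113, 134 and 74.8 CPM in aged Ri and 48.1, 40.4, 36.8, 60.2 and 71.7 CPM in aged libraries, a log2 fold change of 0.93 ± 0.25 (SE) with an edgeR adjusted p of 0.085. The peak beyond the 3′ end, at chr8:72322294-72322993, had 0.59 ± 0.22 (adjusted p = 0.279), and the peak 7.9 kb upstream had 0.83 ± 0.39 (adjusted p = 0.463). With the replicate block, the start and 3′ peaks had adjusted p values of 0.0042 and 0.0467. Across the 14 libraries, with batch means removed, the peak 23.4 kb upstream followed the 3′ peak (Pearson r = 0.865), the peak 15.6 kb upstream (0.863) and the start (0.755), while the peak 7.9 kb upstream had r between -0.30 and 0.28 with the others. These values share libraries and depth and are a description.

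**Figure D3:**
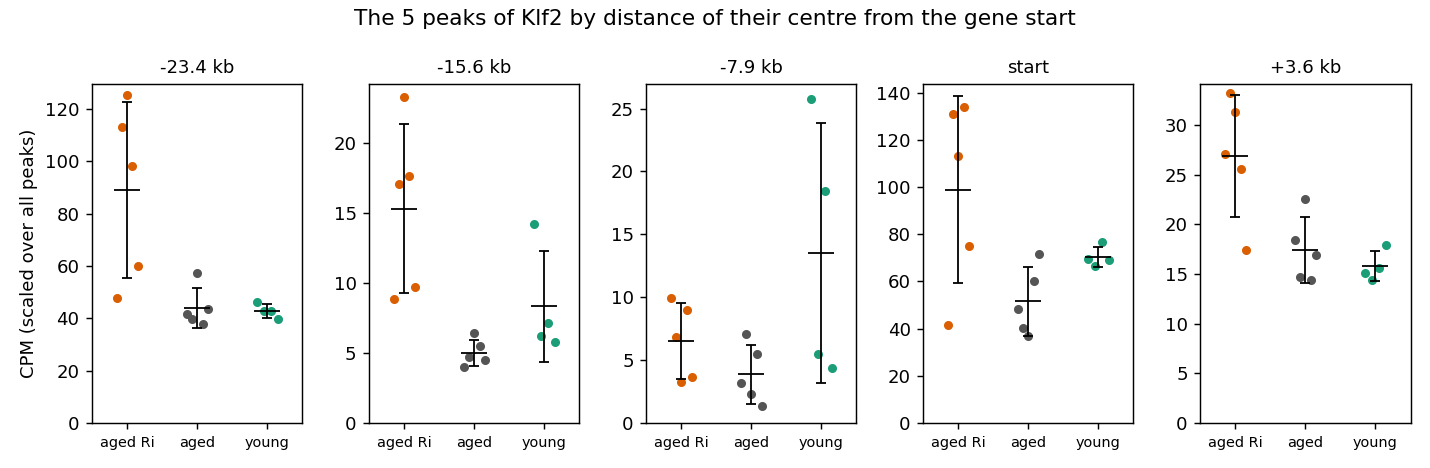
CPM (vertical axes, scaled over all peaks) at the 5 peaks of Klf2, ordered by distance from the gene start, in aged Ri, aged and young libraries; points are libraries, bars the mean and SD. At the peak 15.6 kb upstream all 5 aged Ri libraries, 8.85 to 23.2 CPM, are above all 5 aged ones, and at the peak 7.9 kb upstream the young libraries spread from 4.35 to 25.8 CPM.

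Outside Klf2, 1 peak each at Klf3, Klf6 and Klf13 was called higher in aged Ri cells. The Klf3 peak lies 61.4 kb from the gene start, beyond the 3′ end, at chr5:64864535-64865234, and had 11.5, 18.7, 28.4, 20.1 and 11.3 CPM in aged Ri against 6.42, 10.5, 5.64, 7.53 and 8.02 CPM in aged libraries. No library of one group overlapped the other there (log2 1.19 ± 0.28, SE; 2.29-fold; edgeR adjusted p = 0.0455). The Klf6 peak, 23.9 kb upstream of a gene known for its induction by liver injury, at chr13:5837198-5837897, had 20.8, 10.2, 28.4, 18.3 and 13.3 CPM in aged Ri and 5.61, 8.79, 11.7, 4.79 and 8.46 CPM in aged libraries. Aged Ri 2 lay inside the aged range (log2 1.16 ± 0.28, SE; 2.23-fold; edgeR adjusted p = 0.0499).

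The Klf13 peak, 26.6 kb upstream at chr7:63965123-63965822, had 9.37, 13.6, 15.2, 13.7 and 13.3 CPM in aged Ri and 6.42, 5.86, 4.89, 6.84 and 5.79 CPM in aged libraries. The groups did not overlap (log2 1.143 ± 0.279, SE; 2.21-fold; edgeR adjusted p = 0.0499), and KLF13 is known in T cells as an activator of the chemokine gene Ccl5. At each of these 3 peaks all 5 pairs were above 1. As at the called Klf2 peaks, this follows in part from choosing these peaks by a test on the same libraries. Their calls were near the threshold: with 1 library left out the Klf3 call was lost for aged Ri 2, 3 and 4 and aged 1 to 4 (0.0630 to 0.325), the Klf6 call for aged Ri 1 to 4 and aged 1 to 4 (0.0537 to 0.369), and the Klf13 call for those and aged 5 (0.0558 to 0.287). All 3 were also lost without the batch term, with library totals and with DESeq2 size factors (0.0501 to 0.114).

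**Figure D4:**
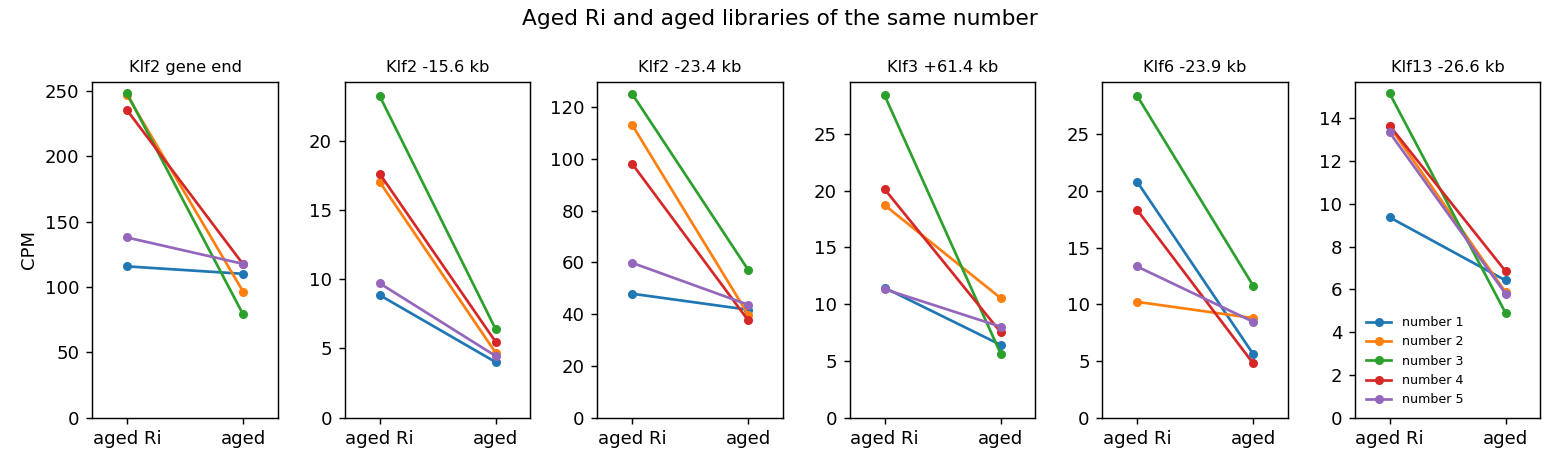
CPM (vertical axes, from 0) in aged Ri and aged libraries of the same number, joined by lines, at the Klf2 gene end and the 5 KLF peaks called in aged Ri against aged cells. The gene end is scaled over gene-end counts and the peaks over all peaks. Every line is higher at the aged Ri side, steepest for numbers 2, 3 and 4 at Klf2.

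With the replicate number as a block, an assumed pairing, 10 of 62 KLF peaks were called between aged Ri and aged cells. They were 9 higher and 1 lower, against 4.42% of all peaks called. They were the 5 above, the start and 3′ peaks of Klf2, the Klf6 peak 16.0 kb upstream, a Klf4 peak 17.5 kb downstream of the start (log2 0.74, adjusted p = 0.0149, edgeR) and a peak inside Klf13, the lower one (log2 -0.69, adjusted p = 0.00952, edgeR). The last pair and the 3′ peak of Klf2 were chosen for naming after their values were seen. The Klf4 peak, at chr4:55514648-55515347, had 16.2 to 31.1 CPM in aged Ri and 8.82 to 14.7 CPM in aged libraries. The Klf13 peak, at chr7:63911790-63912489, averaged 24.3 ± 1.91 CPM in aged Ri and 39.3 ± 9.17 CPM in aged cells. Neither pair of groups overlapped. In all, 4 of 65 KLF peaks were above and 2 below without overlap, against 0.903% and 0.662% of all peaks.

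**Figure D5:**
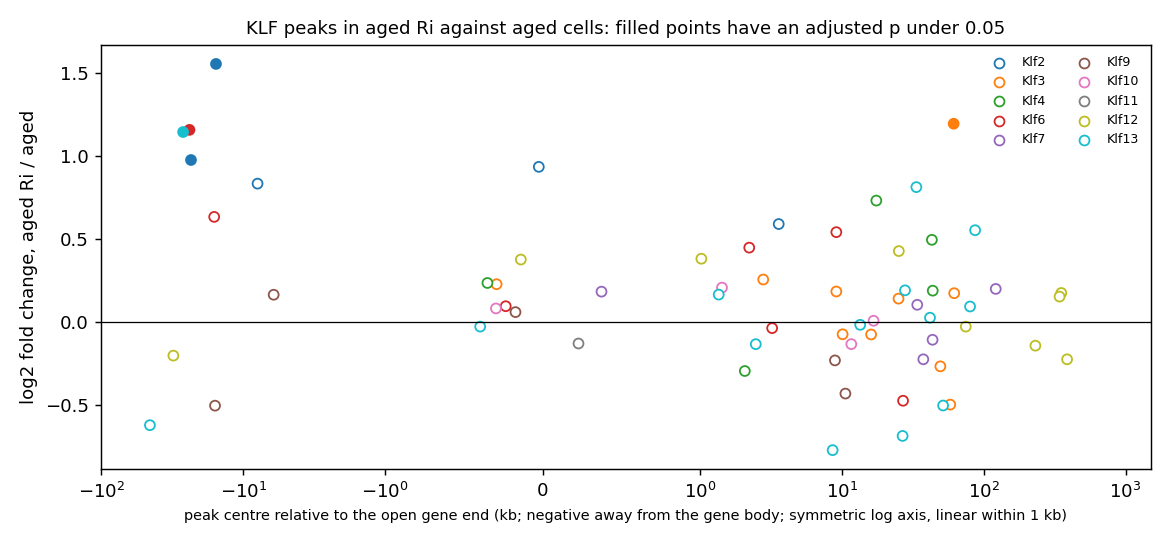
Log2 fold change in aged Ri against aged cells (vertical axis) of the 65 KLF peaks tested, by distance of the peak centre from the open gene end in kb (horizontal, symmetric log axis, linear within 1 kb; negative away from the gene body); filled points have an adjusted p under 0.05. The 5 filled points lie 15.6 to 61.4 kb from the gene end, with log2 fold changes of 0.97 to 1.55.

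With age alone, no KLF gene end passed the test, while 2.1% of all gene ends did (edgeR with batch as a term). Klf9, a gene known to be induced by glucocorticoids and thyroid hormone, was nearest: its start, at chr19:23140704-23141403, had 185, 204, 209, 155 and 189 CPM in aged and 115, 142, 113 and 173 CPM in young libraries 1 to 4. Young 4 overlapped the aged range, and the log2 fold change was 0.47 ± 0.16 (SE; edgeR adjusted p = 0.104). It was 0.75, 0.50 and 0.13 within batches 1, 2 and 3, and without young 4 it was 0.67, with an adjusted p of 0.0126. These values depend on the scaling: scaled over all peaks, the same peak had a log2 fold change of 0.24 ± 0.22 (SE; edgeR adjusted p = 0.547). Klf1, the erythroid member of the family, had 0.57 ± 0.20 in the same direction and no call (0.128).

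The Klf2 end had 104 ± 16.5 CPM in aged and 119 ± 7.15 CPM in young cells (SD, n = 5 and 4), a log2 fold change of -0.19 ± 0.19 (SE) with an edgeR adjusted p of 0.635. Its young libraries were close together, at 124, 119, 125 and 109 CPM. Klf4 had 109 ± 35.4 CPM in aged and 141 ± 43.1 CPM in young cells, a log2 fold change of -0.29 ± 0.15 (SE; adjusted p = 0.327). The remaining 7 ends had log2 fold changes between -0.20 and 0.13, all with adjusted p values of 0.492 or more. A single end, that of Klf9, had an unadjusted p under 0.05, against 17.6% of all ends.

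At single peaks, 2 of 65 KLF peaks were called with age, against 5.72% of all peaks, 1 of them lower, against 1.26%. The lower one was the Klf2 peak 7.9 kb upstream, at chr8:72310786-72311485, with 3.21, 7.03, 2.26, 5.48 and 1.34 CPM in aged and 25.8, 5.50, 18.5 and 4.35 CPM in young libraries. Young 1 and 3 were high, and young 2 and 4 lay within the aged range (log2 -1.87 ± 0.40, SE; edgeR adjusted p = 0.00375). This peak held 192 counts over all libraries, and the call was lost without young 1 (0.123), without the batch term (0.0588), with the replicate block (0.0786) and when the gene-end share of counts entered as a covariate (0.511).

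The higher one lies 34.0 kb beyond the 3′ end of Klf13, at chr7:63851613-63852312, and had 10.4, 5.86, 12.4, 10.3 and 9.35 CPM in aged and 3.55, 2.06, 5.68 and 1.45 CPM in young libraries. Every aged library was above every young one, as at 1 of 65 KLF peaks and 4.41% of all peaks. The log2 fold change was 1.73 ± 0.42 (SE; 3.31-fold; edgeR adjusted p = 0.0113), and the log2 difference was 0.96, 1.44 and 2.08 within batches 1, 2 and 3. This peak lost its call without young 2 (0.0624) and with the covariate (0.382). The share of counts at gene ends, lower in both aged groups than in young cells as given above, moves with every comparison with young cells, and its part beyond this covariate was not tested.

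Set against young cells, aged Ri cells had higher accessibility at the Klf2 and Klf9 ends, 2 of 10, against 5.22% of all gene ends called and 4.02% higher. This comparison shares its aged Ri libraries with the first and its young libraries with the second, so the values are given side by side and not as separate evidence. Klf2 averaged 197 ± 64.6 CPM in aged Ri and 119 ± 7.15 CPM in young cells (log2 0.71 ± 0.18, SE; 1.64-fold; edgeR adjusted p = 0.023), beside 0.91 in aged Ri against aged and -0.19 in aged against young cells. Aged Ri 1 was below 3 of the 4 young libraries, the other 4 above all of them. The call was lost without aged Ri 3 or young 1, 2 or 3 (0.0665 to 0.0945) and with scaling over all peaks (0.170).

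Klf9 had 165, 197, 262, 198 and 151 CPM in aged Ri and 115, 142, 113 and 173 CPM in young libraries, with log2 0.51 ± 0.15 (SE; 1.42-fold; edgeR adjusted p = 0.0451), beside 0.04 in aged Ri against aged and 0.47 in aged against young cells. Within batches 1, 2 and 3 it was 0.65, 0.84 and -0.20, so the only pair of batch 3 went the other way. Its call was lost without aged Ri 1, 2 or 3 or young 1, 2 or 3 (0.0547 to 0.257) and in 7 of 9 other settings. Among these were no batch term (0.0966), the gene-end share as a covariate (0.541) and scaling over all peaks (log2 0.29, edgeR adjusted p = 0.354). Klf12 (0.39 ± 0.16, adjusted p = 0.131) and Klf7 (0.28 ± 0.13, adjusted p = 0.190) were next, with no call.

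Of the 65 KLF peaks, 9 differed between aged Ri and young cells, 7 higher and 2 lower, against 11.5% of all peaks called, 7.9% higher and 3.56% lower. The share of KLF peaks is near that of all peaks. A pair of them kept the call with each library left out in turn and under each of the 8 other settings. The first is the Klf2 peak 23.4 kb upstream, with 88.9 ± 33.6 CPM in aged Ri and 42.8 ± 2.67 CPM in young cells (SD, n = 5 and 4; log2 1.02 ± 0.24, SE; edgeR adjusted p = 0.00425).

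The second is the Klf6 peak 16.0 kb upstream, at chr13:5845111-5845810, with 28.6, 40.0, 52.6, 41.4 and 21.8 CPM in aged Ri and 18.2, 16.5, 17.0 and 13.5 CPM in young libraries (log2 1.09 ± 0.23, SE; edgeR adjusted p = 0.00203). Aged cells were between, at 23.9 ± 6.78 CPM. The neighbouring Klf6 peak 23.9 kb upstream was also higher (log2 1.45 ± 0.32, adjusted p = 0.00284), and it lost the call with the covariate (0.299).

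The largest of the 9 was the Klf13 peak beyond the 3′ end, with 14.1, 14.5, 28.1, 8.99 and 7.68 CPM in aged Ri and 3.55, 2.06, 5.68 and 1.45 CPM in young libraries (log2 2.28 ± 0.40, SE; 4.85-fold; edgeR adjusted p = 0.000279). It also differed in aged against young cells, and in aged Ri against aged cells it had 0.55 ± 0.30 and no call (0.552). Klf13 further had 1 peak inside the gene higher (chr7:63905080-63905779, log2 1.15, adjusted p = 0.0298) and 1 upstream lower (chr7:63984075-63984774, log2 -1.21, adjusted p = 0.00847). With the covariate the calls of these 3 Klf13 peaks were lost (0.0738 beyond the 3′ end, 0.516 inside and 0.422 upstream). The upstream one had 6.43 ± 2.72 CPM in aged Ri, 9.32 ± 1.60 CPM in aged and 13.6 ± 2.26 CPM in young cells.

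The remaining 3 were the Klf3 peak at 61.4 kb (log2 1.13, adjusted p = 0.015), a Klf4 peak 43.1 kb downstream of the start (chr4:55489038-55489737, log2 0.83, adjusted p = 0.0351) and a peak inside Klf7 that was lower (chr1:64078437-64079136, log2 -1.34, adjusted p = 0.0191; edgeR throughout). The Klf7 peak had 4.92 ± 1.83 CPM in aged Ri, 4.95 ± 3.69 CPM in aged and 11.6 ± 3.38 CPM in young cells. When the gene-end share was a covariate, 7 of these 9 calls were lost (adjusted p 0.0738 to 0.652), all but those of the Klf2 peak 23.4 kb upstream and the Klf6 peak 16.0 kb upstream, and the Klf2 start peak gained one (log2 1.17, 0.00743). Calls that ended when 1 library was left out were those of the Klf3 peak (aged Ri 3), the Klf7 peak (aged Ri 3 or young 1), the Klf4 peak (aged Ri 1, 3 or 5 or young 2, 3 or 4) and the peak inside Klf13 (aged Ri 1, 3 or 5 or young 1, 2 or 3), with adjusted p values of 0.0502 to 0.179.

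Taken gene by gene, all 5 Klf2 peaks had log2 fold changes above 0 in aged Ri against aged cells, with a median of 0.93, beside -0.43 in aged against young and 0.72 in aged Ri against young cells. Klf6 had 5 of 7 above 0 (median 0.45), Klf4 had 4 of 5 (0.23), Klf13 had 7 of 14 (0.00), and Klf9 had 2 of 5 (-0.23) in aged Ri against aged cells. In the same comparison Klf3 had 6 of 10 above 0, Klf7 had 3 of 5, Klf10 had 3 of 4, Klf12 had 5 of 9 and Klf11 had 0 of 1. Over all peaks 47.3% were above 0. Peaks of one gene share libraries and can move together, so these counts are a description.

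The gene ends most like Klf2 across the 14 libraries, by Pearson r of batch-centred log2 CPM among 11033 ends, were Celf6 (0.947), Fzd4 and Tmem135, which share one end (0.860), Arhgap5 (0.855) and Zmynd10 (0.846). Celf6, which encodes an RNA-binding protein, had 85.1 ± 9.44 CPM in aged Ri, 57.5 ± 8.12 CPM in aged and 65.5 ± 3.28 CPM in young cells. None of these 5 was called in any comparison. The end of Arhgap5 had a log2 fold change of 0.33 in aged Ri against aged cells (adjusted p = 0.543, edgeR). The other 9 KLF ends had r between 0.18 (Klf11) and 0.57 (Klf3), and the nearest of them, Klf3, stood 329th.

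Genes around the family showed few calls. Over all gene ends, 0.0755% were called in aged Ri against aged, 2.1% in aged against young and 5.22% in aged Ri against young cells. At these shares short lists hold few calls or none, so the counts below are a description. Of 7 further KLF genes, Klf1, Klf5 and Klf16 had an open end and none was called in any comparison. Of the 9 SP genes, the closest relatives of the KLF family, 6 had an open end and none was called. Of 15 kinases, MEF2 factors, deacetylases and CCM proteins that control Klf2 and Klf4 in endothelium, 11 were tested. None was called in aged Ri against aged cells, where Mapk7, which encodes ERK5, had the smallest p (log2 0.24 ± 0.18, SE; edgeR adjusted p = 0.909), and none in aged against young cells. Hdac5, a class IIa deacetylase that holds MEF2 factors inactive, was lower in aged Ri than in young cells, with 87.2 ± 12.8 CPM and 126 ± 14.3 CPM (SD, n = 5 and 4; log2 -0.49 ± 0.15, SE; edgeR adjusted p = 0.04). It was 1 of 11, against 5.22% of all gene ends called and 1.2% lower. Untreated aged cells had 84.8 ± 20.3 CPM at Hdac5, with a log2 fold change of 0.03 in aged Ri against aged cells and of -0.52 in aged against young cells (adjusted p = 0.0524). Hdac4, the other class IIa deacetylase tested, went the other way with age, with no call. It had 12.7 ± 4.84 CPM in aged and 3.88 ± 3.24 CPM in young cells (log2 1.82 ± 0.56, SE; edgeR adjusted p = 0.0737). Of 14 cofactors and degraders of KLF proteins, 13 were tested and none was called. The smallest p in aged Ri against aged cells was that of Wwp1, a ubiquitin ligase that acts on KLF2 and KLF5 (log2 -0.29 ± 0.14, adjusted p = 0.701).

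Of 10 genes known as KLF2 or KLF4 targets in T cells or endothelium, 7 had an open end. None was called in aged Ri against aged cells, in which their median log2 fold change was 0.11, or in aged against young cells, with a median of 0.55. Among all gene ends, 0.0755% and 2.1% were called in these comparisons. In aged Ri against young cells 3 rose: Tek, the angiopoietin receptor, with 21.7 ± 6.44 CPM in aged Ri and 6.80 ± 1.47 CPM in young cells (log2 1.63 ± 0.38, SE; adjusted p = 0.00782), Edn1, which encodes endothelin, with 74.95 ± 18.9 CPM in aged Ri and 39.2 ± 19.97 CPM in young cells (log2 0.85 ± 0.23; 0.0317), and Nos3, endothelial nitric oxide synthase, with 43.4 ± 13.4 CPM in aged Ri and 22.8 ± 4.08 CPM in young cells (log2 0.83 ± 0.24; 0.037). Among all gene ends 5.22% were called in this comparison and 4.02% were higher. Untreated aged cells had 18.2 ± 7.84 CPM at Tek, 63.2 ± 6.38 CPM at Edn1 and 34.8 ± 8.51 CPM at Nos3, with adjusted p values of 0.913 or more in aged Ri against aged cells. The 4 of 5 endothelial markers with an open end summed to 72.2 to 139 CPM in aged Ri, 108 to 161 CPM in aged and 78.6 to 118 CPM in young libraries. Cdh5 had no end peak, and none of the 4 was called in any comparison. The part of endothelial cells in the rise of these 3 genes was not tested.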

How the data were processed

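ATAC-seq counts of 14 libraries from 3 groups were analysed. The authors deposited raw counts per library in consensus peaks of 700 bp, with peak positions. Tools named in the submitters' processing notes are featureCounts, SAMtools 1.14 and R 4.2.0, with mm10 as the build; the aligner, the peak caller, duplicate handling and any Tn5 shift are not given in the sources used here.

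Gene spans came from RefSeq GRCm38.p6 (21887 protein-coding genes). Peaks overlapping 1 kb either side of a gene end were added up, and each gene was represented by its deeper end. All 56235 peaks and 13239 gene ends that passed filterByExpr were tested in R 4.3.3 with edgeR 4.0.16 (quasi-likelihood test, robust, TMM, 14 libraries, terms for group and batch), Benjamini-Hochberg adjusted, with a threshold of 0.05. The SE is the log2 fold change over the root of F. The fits were tested on simulated data. Alternatives used DESeq2 1.42.0, limma 3.58.1 and those in the closing section. Tables and figures used Python 3.11.15, pandas 2.3.3, numpy 2.4.6 and matplotlib 3.10.9.

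Members, lists and motifs were chosen with earlier results of these data known. Named were all 10 gene ends, called KLF peaks, each gene's deepest peak and the 6 peaks of smallest p per comparison; the text gives part of these. Libraries of aged Ri and aged cells with the same number shared a batch and deviated together (r 0.143 to 0.645 over 25903 peaks). The numbers were taken as pairs there, which is an assumption. For aged Ri 4, an aged library of another number had a higher r (0.292 against 0.274), and for aged Ri 1 the values were close (0.333 against 0.358). With batch means removed, r of the same number was -0.225 to 0.472 (above 0.1 for numbers 3 and 4). Numbers shared with young libraries (r -0.28 to 0.0654) were not taken as pairs. The labels state biological replicates but not which animals they came from.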

Additional observations from a re-analysis of the deposited data

Results flagged for a closer look

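Among 99 groups of values at the 23 named peaks and 10 gene ends, 7 held a library whose gap to the nearest other was over Dixon's 95% value for the group's size, and chance gives about 1 in 20. At the Klf2 peak 15.6 kb upstream, young 1 was high at 14.2 CPM, against 5.80 to 7.10 CPM in the other young libraries. At the Klf3 start peak aged Ri 1 was low at 58.8 CPM (others 113 to 135), and at the Klf7 end peak the same library was low at 59.9 CPM (others 101 to 114). At the Klf3 peak 61.4 kb from the start, young 4 was low at 3.87 CPM (others 9.62 to 9.94). At the Klf6 peak 16.0 kb upstream, aged 5 was low at 12.02 CPM (others 24.9 to 28.1). At the peak inside Klf13 called in aged Ri against young cells, aged Ri 2 was low at 4.26 CPM (others 10.1 to 12.3) and young 3 was low at 2.84 CPM (others 4.81 to 4.89).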

How the results depend on the processing

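Of 1738 alternative values of 99 named quantities, 1600 kept their side of the threshold, 110 lost a call, 28 gained one and 0 called values changed sign; 98 that were called neither way had another sign. KLF gene ends called in aged Ri against aged cells (1) were 0 without the batch term and 0 with scaling over all peaks, and 0 to 1 with each library left out. In aged against young cells (0) they were 1 with the replicate block (Klf4, log2 -0.51, edgeR adjusted p = 0.0456) and 0 to 1 with each library left out. With that block 7.55% of all gene ends were called. In aged Ri against young cells (2) they were 1 with a 2 kb window, DESeq2 size factors, the DESeq2 test, the share covariate, no batch term or no filter, 0 with scaling over all peaks, and 0 to 3 with each library left out. KLF peaks called in aged Ri against aged cells (5) were 2 with DESeq2 size factors, 3 with library totals, 1 without the batch term, 3 without the filter, 10 with the replicate block and 0 to 6 with each library left out. In aged against young cells (2) they were 0 with the covariate, 1 without the batch term and 1 to 4 with each library left out. In aged Ri against young cells (9) they were 3 with the covariate and 5 to 12 with each library left out. The cause was not tested. With the replicate block, the Klf4 start peak gained a call in aged against young cells (log2 -0.84, adjusted p = 0.0187, edgeR), where 10% of all peaks were called. The 3′ peak of Klf2 gained one in aged Ri against young cells (log2 0.79, adjusted p = 0.0272, edgeR), where 15.6% of all peaks were called. Other calls changed by the block are given above. Numbers shared with young libraries are only numbers. The block took the place of the batch term, and for numbers 2 and 4 the young library was of another batch than the aged ones. Depth limits single peaks: a peak with 192 counts over 14 libraries has few per library.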
